A study of Mus musculus with 6 samples.

Results

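Fatty acid binding proteins are small cytosolic carriers that hold long-chain fatty acids and related lipids in a barrel-shaped pocket and move them between membranes, enzymes and nuclear receptors. Fabp7, the brain-type carrier, is a familiar gene of radial glia and immature astrocytes, and Fabp5, the epidermal type, is made by many cell types, neural ones among them. Fabp3, the heart type, is best known from muscle and is also found in neurons. These 3 genes were chosen by name from the 32285 genes of the count table and followed through the cell clusters, the astroglial sub-clusters, the pseudotime bins and the ages.

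The cells came from the striatum of wild type male C57BL/6 mice, either at postnatal day 3 (P3) or at 3 months (3m), with 3 libraries at each age. Each preparation pooled several animals, left out the subventricular zone and was enriched on beads that bind ACSA2, an antigen on the surface of astrocytes. The libraries were made with the 10x Chromium 3′ chemistry, in which a unique molecular identifier (UMI) marks each captured transcript once. Because a transcript is counted at its 3′ end whatever its length, levels of different genes are set side by side here as counts per 1e+06 UMIs (CPM) without division by length.

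Of 16690 barcodes, 14373 carried a cluster name and 9992 of these were astroglial, 1118 at 3m and 8874 at P3. Totals per library ranged from 5471573 to 10522151 UMIs at 3m and from 32193875 to 37795021 at P3. All 6 astroglial markers (Sox9, Slc1a3, Slc1a2, Aqp4, Aldoc and Gja1) were detected in the astroglial sums. Their summed level was 14366 to 15178 CPM at 3m and 4820 to 5778 CPM at P3. Of 16653 distinct barcode sequences, 37 occurred in more than 1 library. Several groups came nearly whole from 1 library. Sub-cluster 14 had 182 of its 184 cells in 3m replicate 1, sub-cluster 1 had 1156 of 1211 in P3 replicate 1, sub-cluster 4 had 719 of 734 in P3 replicate 3, and END_12 had 346 of 349 in the same library.

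The genes lie apart in the genome. In GRCm38 (GENCODE M21), Fabp7 is at chr10:57784881-57788450, Fabp5 at chr3:10012548-10016607 and Fabp3 at chr4:130308595-130315463, all on the plus strand. Fabp5 is the first of a run of family members on chromosome 3 that goes on with Pmp2, Fabp9, Fabp4 and Fabp12 and ends at base 10301183. The main transcript of each gene has 4 exons, and the coding parts of exon 2 (173 bases) and exon 3 (102 bases) have the same length in all 3. The coding sequences are nonetheless far from identical. Fabp3 and Fabp7 shared 66.7% of 399 aligned bases, Fabp3 and Fabp5 55.7% of 402, and Fabp5 and Fabp7 55.4% of 399. The longest stretch of identical bases between whole transcripts was 20 (Fabp3 and Fabp7), which bears on whether short reads can be told apart. A processed pseudogene, Fabp3-ps1 on chromosome 10, shared an unbroken 256 bases with Fabp3, so Fabp3 counts are less certain. The 90 aligned coding bases that were most alike are shown to make this visible, from base 24 of the coding sequence in Fabp3 and Fabp7 and from base 30 in Fabp5. Capitals mark the 50 bases identical in all 3.
Fabp3: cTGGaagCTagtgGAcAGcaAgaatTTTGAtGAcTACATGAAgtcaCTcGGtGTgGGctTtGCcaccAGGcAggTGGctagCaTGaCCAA
Fabp5: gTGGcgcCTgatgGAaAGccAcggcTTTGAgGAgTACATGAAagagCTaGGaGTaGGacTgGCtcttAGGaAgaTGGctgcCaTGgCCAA
Fabp7: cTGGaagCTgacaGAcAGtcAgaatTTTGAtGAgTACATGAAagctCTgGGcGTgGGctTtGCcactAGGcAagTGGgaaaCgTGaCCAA

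Promoter windows from RefSeq (GRCm38.p6), cut at the first base of the GENCODE gene, were at hand for Fabp7 and Fabp3. They are shown because Fabp7 had the larger change with age and Fabp3 the lowest level. The Fabp7 window is chr10:57784673-57784880 and the Fabp3 window is chr4:130308488-130308594, both on the plus strand. Capitals mark any match, on either strand, to TTGGC (a nuclear factor I half-site), TGGGAA (the core bound by Rbpj) or TATAAA.
Fabp7: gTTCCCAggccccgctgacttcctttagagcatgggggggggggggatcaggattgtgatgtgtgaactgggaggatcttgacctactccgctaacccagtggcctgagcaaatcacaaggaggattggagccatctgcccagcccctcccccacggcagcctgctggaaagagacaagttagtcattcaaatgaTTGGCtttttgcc
Fabp3: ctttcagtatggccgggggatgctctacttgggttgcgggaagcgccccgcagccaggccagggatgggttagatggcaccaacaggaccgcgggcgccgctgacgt
The 208 bases of Fabp7 held 1 match to TTGGC, which 36.2% of 32851 promoter windows of that length also held, and 1 match to TGGGAA, held by 18.5%. TATAAA was in neither window and in 9.47% of the longer windows. In the 107 bases of Fabp3 none of the 3 motifs was found, against 18.7% of windows of that length for TTGGC, 10.2% for TGGGAA and 5.52% for TATAAA.

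Astroglial cells of each library were summed and the ages compared across libraries, to ask how the carriers change as striatal astrocytes mature. At P3, Fabp7 was the gene with the second highest count in the astroglial sum of every library. Its level was 20821, 24140.2 and 18008 CPM in P3 replicates 1, 2 and 3. At 3m it stood at 233, 339 and 172 CPM, from 270, 625 and 254 UMIs. Each adult library lay far below each early postnatal one, and 3m replicate 2 was the highest of the adult libraries. Fabp5 measured 4104, 3715 and 2517 CPM at P3 and 1446, 1100.3 and 1274 CPM at 3m. Its libraries did not overlap between the ages either, although P3 replicate 3 came nearer to the adult values than the other two. How many of all genes separate by age in this way was not counted, here or in any cell set below.

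In the pseudobulk test (edgeR's quasi-likelihood test with Benjamini-Hochberg adjustment, over 13530 genes), a gene counts as called when its adjusted p is no higher than 0.05 and its level differed by 1 or more on the log2 scale. All 3 members were called, in a comparison that called 32.1% of genes, 16.3% lower and 15.8% higher at 3m (20.6 and 12.9% without scaling beyond library totals). Fabp7 fell by 6.22 on the log2 scale (SE 0.40, adjusted p = 8.1e-08), from 20989.6 ± 3069.5 to 248 ± 84.2 CPM (mean ± SD, n = 3 libraries each). Fabp5 fell by 1.26 (SE 0.26, adjusted p = 0.00131), from 3445 ± 827 to 1274 ± 173 CPM. Over all genes the median change was -0.04 on the log2 scale (-0.24 without scaling, where Fabp7 changed by -6.40 and Fabp5 by -1.44). In 3m libraries the astroglial sums held 708 to 1864 CPM of 6 oligodendrocyte markers (all detected), against 5.45 to 6.40 CPM at P3. Without cells holding a UMI of Mog, Opalin or Mag, Fabp7 changed by -6.21 and Fabp5 by -1.23. Cycling markers (Mki67, Top2a and Cdk1) stood at 350 to 455 CPM at P3 and 0 to 0.54 CPM at 3m, and without the cycling sub-clusters 6 and 8 the changes were -6.29 and -1.24.

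The third member was at a trace level. Fabp3 measured 1.48, 1.47 and 1.51 CPM at P3 and 3.46, 3.80 and 4.07 CPM at 3m. Every adult library was above every early postnatal one, a separation that was not counted over all genes. The adult values rest on 17 UMIs in all, 4, 7 and 6 per library. The test called Fabp3 higher at 3m (log2 1.54, SE 0.41, adjusted p = 0.00699). Sub-cluster 16 held 12 of the 17 adult UMIs, and without its 121 cells, a setting chosen after the values were seen, the change was -0.14 with an adjusted p of 0.894. The adult levels were then 0.89, 0 and 2.78 CPM in replicates 1, 2 and 3, on both sides of the P3 levels.

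**Figure D1:**
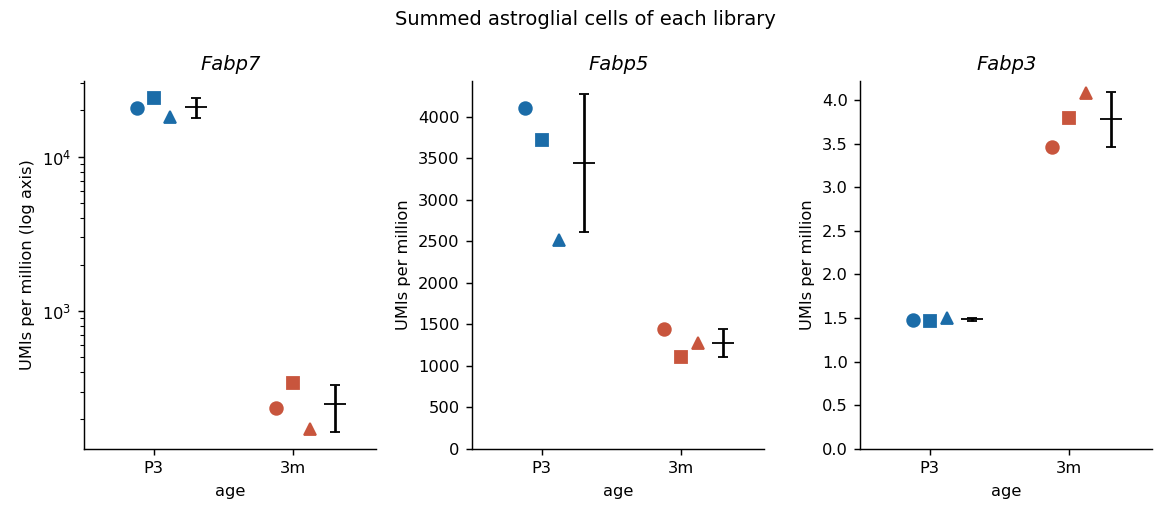
Levels of the 3 carriers in the summed astroglial cells of each library, in CPM, by age. Circles, squares and triangles are replicates 1, 2 and 3 and the black bar is the mean ± SD of 3 libraries. The Fabp7 axis is logarithmic, the Fabp5 and Fabp3 axes start at 0, and the adult Fabp3 values rest on 17 UMIs in all.

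The decline of Fabp7 was seen in both regional classes of astrocytes that the study separates. In the telencephalic sub-clusters (0, 1, 2, 9 and 11 at P3, 7 and 14 at 3m), Fabp7 was 23609, 29294 and 23939 CPM at P3 and 241, 197 and 163 CPM at 3m. Both tested members were called lower there, in a comparison that called 29.6% of genes (14.3% lower and 15.4% higher, or 18.6 and 12.4% without scaling). The log2 changes were -6.81 for Fabp7 (SE 0.36, adjusted p = 5.60e-13) and -1.30 for Fabp5 (SE 0.23, adjusted p = 7.00e-05, edgeR). Fabp3 was too low to be tested in either class.

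In the non-telencephalic sub-clusters (3, 4, 5, 10, 12 and 15 at P3, 13 and 16 at 3m), Fabp7 was 11113, 16846 and 11316 CPM at P3 and 97.7, 496 and 226 CPM at 3m. The 3m replicate 1 sum had 17 cells and 6 UMIs of Fabp7. Fabp5 fell there from 2123, 1845 and 1383 CPM to 440, 751 and 886 CPM, without overlap (not counted over all genes). Again Fabp7 (log2 -5.08, SE 0.51, adjusted p = 1.22e-09) and Fabp5 (log2 -1.001, SE 0.32, adjusted p = 0.0148, edgeR) were called lower, among 29.5% of genes called (14.4% lower and 15.1% higher, or 24.2 and 10.2% without scaling). The Fabp5 change sits at the threshold: without 3m replicate 1 it was -0.79, and without 3m replicate 2 its adjusted p was 0.0576. The adult non-telencephalic sums also held 2852 to 23362 CPM of the 6 oligodendrocyte markers, against 5.04 to 6.69 CPM at P3, and the part of these in the result was not tested. The difference of the age change between the classes was not tested.

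Fabp5 and Fabp7 exchanged rank with age. At P3 the astroglial sums held 5.07, 6.50 and 7.16 UMIs of Fabp7 for each UMI of Fabp5, whereas at 3m they held 6.19, 3.24 and 7.37 UMIs of Fabp5 for each of Fabp7. On the log2 scale the ratio of Fabp5 to Fabp7 was -2.63 ± 0.26 at P3 and 2.40 ± 0.62 at 3m (SD, n = 3 each, p = 0.1, exact permutation test, two-sided, the smallest p that 3 libraries against 3 allow). The 3 carriers together took 2.05 to 2.79% of astroglial UMIs at P3 and 0.144 to 0.168% at 3m.

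The share of cells with a counted UMI at one depth changed as well. Such a share depends on the level and on the depth, so it does not count cells that lack the transcript. To set cells of different depth on one scale, 2000 UMIs were drawn at random from every astroglial cell that had as many, which kept 197, 405 and 304 cells at 3m and 1937, 2985 and 2839 at P3. A UMI of Fabp7 was then found in 99.9 ± 0.0679% of P3 cells and 30.1 ± 4.92% of 3m cells (SD, n = 3 each, p = 0.1, exact permutation test, two-sided). The adult libraries had 30.5, 34.8 and 25.0% of such cells, with Wilson 95% intervals from 24.5 to 37.2%, 30.3 to 39.6% and 20.5 to 30.2%. The mean 3m share was 19.8% when 1000 UMIs were drawn and 46.7% without thinning. In adult oligodendrocytes, which should lack the gene, the thinned share was 2.01% in ODC_2 and 0.596% in ODC_10. Their median depths were 4587 (ODC_2) and 8829 UMIs (ODC_10), beside 2977 to 5326 in adult astroglial cells of the same libraries. The median thinned P3 cell held 33 to 47 UMIs of Fabp7, depending on the library, and the median 3m cell held 0.

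Fabp5 stayed widespread. Thinned cells with a UMI made up 98.8, 97.6 and 93.0% at P3 and 86.8, 78.8 and 87.2% at 3m (p = 0.1, exact permutation test, two-sided, n = 3 each), with medians of 4 to 7 UMIs per P3 cell and 2 UMIs per 3m cell. In adult endothelial cells (END_17) the thinned share for Fabp5 was 2.67% and in adult microglia 5.66%, at median depths of 5934 (END_17) and 3940 UMIs (MIC_16). For Fabp3 the shares were 0.261 ± 0.171% at P3 and 0.663 ± 0.281% at 3m (SD, n = 3 each, p = 0.1, exact permutation test, two-sided). These shares rest on 6, 12 and 2 cells with a UMI in P3 replicates 1, 2 and 3. In 3m replicates 1, 2 and 3 they rest on 1, 2 and 3 cells. Without thinning the Fabp3 shares were 1.35 ± 0.380% at P3 and 1.55 ± 0.404% at 3m (SD, n = 3 each). An exact permutation test, two-sided, gave p = 0.5 without thinning, 0.4 without cycling sub-clusters and 0.1 with 1000 UMIs drawn. Adult oligodendrocytes had a UMI of Fabp3 in 0.921% (ODC_2) and 0.199% (ODC_10) of thinned cells, on either side of the thinned adult astroglial share. Across single P3 cells the thinned counts of Fabp5 and Fabp7 had a Pearson r of 0.249, 0.340 and 0.328 in replicates 1, 2 and 3 (1937, 2985 and 2839 cells that share a library). Across 3m cells r was 0.0871, 0.0895 and 0.133, as a description of sparse counts.

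Across the 24 clusters, defined by the study from the same expression data, levels are given as a description with no test. Markers of the labelled type were all detected in the P3 clusters of pericytes (PER_6), neurons (NEU_22) and oligodendrocyte precursors (OPC_18). END_12 went against its label, with 3708 CPM of astroglial and 1135 CPM of endothelial markers, beside 82998 CPM of 4 haemoglobin genes, so its Fabp7 level of 10696 CPM is not read as endothelial. Among P3 clusters, Fabp7 was highest in the astrocyte cluster AST_P3_0 (24700 to 31446 CPM over the 3 libraries) and then in AST_P3_3 (20902 to 27752) and AST_P3_11 (17244 to 21159). The dividing glial progenitors GPC_9 (14811 to 20423) and GPC_8 (13218 to 16939) came below them. Among astroglial clusters the lowest was AST_P3_19, with 2584 to 6123 CPM. Its 5 markers of multiciliated cells summed to 2493 CPM, as much as its astroglial markers (2485). The ranges of libraries overlapped for 15 of 17 neighbouring pairs in this order. Read within libraries, 4 of the 13 pairs that shared at least 2 libraries kept their order in each of them, with AST_P3_0, AST_P3_3, AST_P3_11 and GPC_9 in the same order in all 3.

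Fabp5 followed another order. AST_P3_15 was first with 3928 to 5419 CPM and AST_P3_0 second with 3234 to 4717 CPM, again with 15 of 17 neighbouring pairs overlapping. Within libraries 7 of 13 pairs kept their order, and AST_P3_15 was above AST_P3_0 in all 3. AST_P3_11, among the highest in Fabp7, had a Fabp5 level of 946 to 1570 CPM, below every value of AST_P3_0. The endothelial cluster END_7 held the least Fabp5 of the P3 clusters, at 199, 156 and 93.0 CPM. At 3m the highest were AST_3m_5 (1349 to 1506 CPM), ODC_2 (1022 to 1311), ODC_10 (744 to 1239) and AST_3m_14 (498 to 827).

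**Figure D2:**
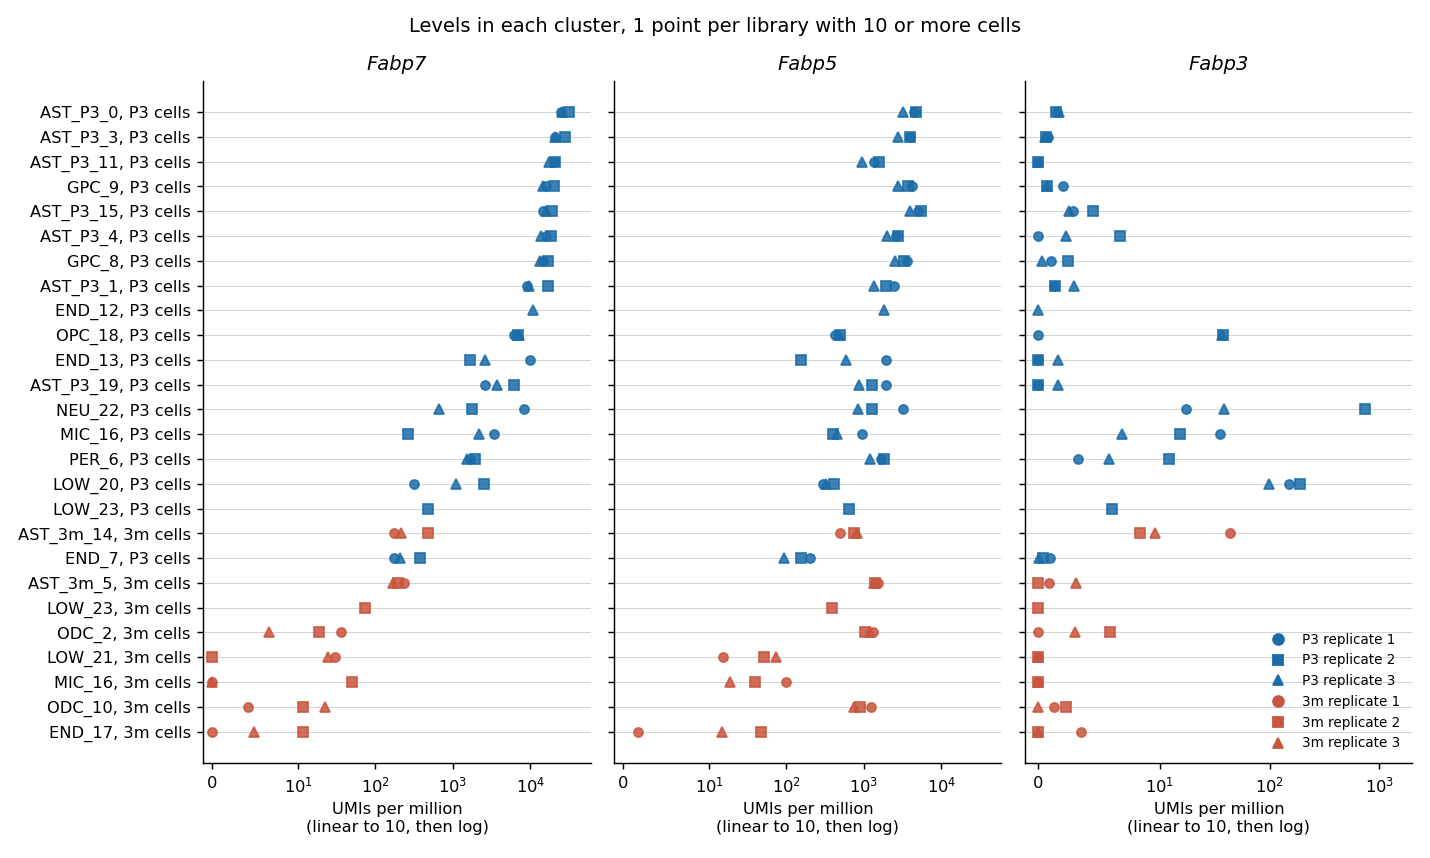
Level of each carrier in every cluster and age with at least 10 cells in a library, in CPM on an axis that is linear to 10 and logarithmic beyond. Rows are ordered by the mean Fabp7 level, blue marks P3 and red marks 3m, and symbols give the replicate. P3 astroglial clusters fill the top of the Fabp7 panel, adult oligodendrocytes are beside adult astrocytes in the Fabp5 panel, and Fabp3 is highest in NEU_22 of P3 replicate 2 and then in LOW_20.

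The astroglial sub-clusters separated the carriers further. At P3, sub-clusters 9 (25318 and 31435 CPM) and 0 (23996 to 31269) had the highest Fabp7 and sub-cluster 15 the lowest (3015 to 6011), and sub-cluster 15 did not overlap its neighbour in the order. Sub-cluster 10 combined high Fabp7 (20066, 23912 and 17930 CPM) with the lowest mean Fabp5 (1359, 1485 and 912 CPM). Sub-cluster 11 had the highest mean Fabp5 (5020.1, 5392 and 3875 CPM) beside Fabp7 of 14989, 21116 and 16648 CPM. That Fabp7 was below sub-cluster 10 in each library, but the ranges of the libraries overlapped. The cycling sub-clusters 6 (13133 to 17184) and 8 (14934 to 21699) lay below sub-cluster 0 in Fabp7, with no overlap between their libraries and its libraries.

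Among adult sub-clusters, 13 had the highest Fabp7, with 494 CPM in 3m replicate 2 and 251 in replicate 3. Sub-cluster 13 contributed 168 cells to 3m replicate 2, the adult library with the highest astroglial Fabp7. Sub-cluster 7 had 163 to 233 CPM and sub-cluster 14 had 241 CPM in the 1 library that filled it. Sub-cluster 16 ranged from 52.0 to 351 CPM, on 2 to 62 UMIs per library. For Fabp5 the telencephalic sub-clusters 7 (1346 to 1828 CPM) and 14 (1493) were above sub-cluster 13 (821 and 994), and sub-cluster 16 was lowest (300 to 509). Fabp3 reached 39.6 to 78.0 CPM in sub-cluster 16, on 2 to 7 UMIs per library, and at most 3.23 CPM in the other adult sub-clusters.

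The study's pseudotime, an order of cells computed from their expression, starts in a cycling sub-cluster and ends in adult telencephalic astrocytes. From bin 2 to bin 11 the Fabp7 level of P3 libraries stayed between 10910 and 22700 CPM. It was highest in bin 13, at 29200, 34210 and 28818 CPM, with bin 12 at 24783 to 33827 and bin 14 at 22041 to 26797. The first bins filled by adult cells were far lower, at 551 CPM in bin 15 (3m replicate 2) and 566, 306 and 174 CPM in bin 16. In bin 18, the last with 3 libraries, Fabp7 was 131 to 230 CPM. No library filled bins on both sides of this step with 10 or more cells, so pseudotime and age cannot be told apart there.

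Fabp5 drew a flatter course. It was 1964 to 4139 CPM in bins 2 to 11, highest on average in bin 13 (4664, 4857 and 3296 CPM), and 1204 to 2075 CPM in bins 16 to 18. P3 replicate 3 had the lowest Fabp5 of its age in all 13 P3 bins, and P3 replicate 2 had the highest Fabp7 in 12 of 13, so part of the spread belongs to libraries and not to bins. The ranges of libraries overlapped for all 12 neighbouring pairs in the P3 order of either gene, and within libraries 5 of 12 pairs kept their order for Fabp7 and 2 of 12 for Fabp5. Fabp3 was at 0 to 3.89 CPM in P3 bins.

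**Figure D3:**
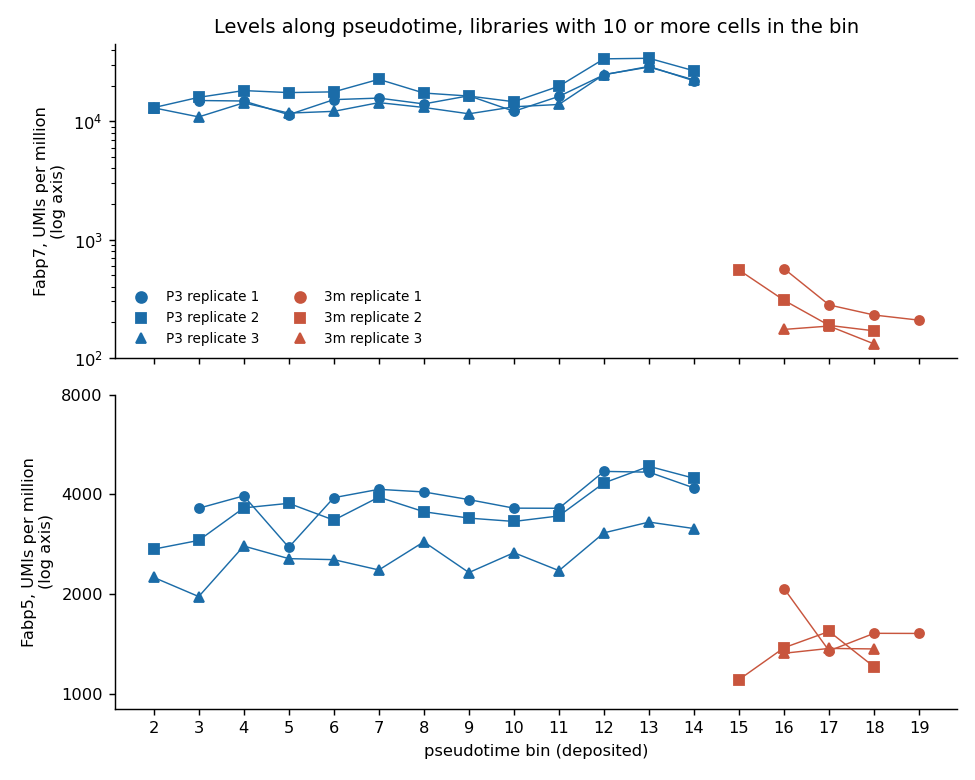
Fabp7 (top) and Fabp5 (bottom) along the pseudotime bins, in CPM on logarithmic axes, with 1 line per library and blue for P3, red for 3m. Fabp7 peaks in bin 13 and drops to 131 to 566 CPM in adult bins 15 to 19, and the Fabp5 line of P3 replicate 3 runs below the other P3 lines.

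Other cell types were examined for carriers of their own. Droplets also take up RNA released by other cells, and RNA from one source keeps its genes in one ratio. Fabp5 and Fabp7 were therefore set against Slc1a3, a glutamate transporter of astroglia, and the ratio was divided by that in astroglial cells of the same library. In END_7 this relative ratio was 0.821, 0.976 and 0.851 for Fabp7 in P3 replicates 1, 2 and 3, and in the pericytes of PER_6 it was 1.08, 0.805 and 0.954. Fabp7 in these clusters thus stood to Slc1a3 about as in astroglia, at 175 to 373 CPM (END_7) and 1501 to 1912 CPM (PER_6). For Fabp5 the relative ratio was 4.74, 2.66 and 2.73 in END_7 and 5.51, 4.96 and 5.55 in PER_6. The ratio covers RNA from astroglia only. END_7 also held 2772 CPM of 6 pericyte markers, beside 12527 CPM in PER_6, and the part of pericyte RNA in its Fabp5 was not tested. Pericytes had 1682, 1812 and 1219 CPM of Fabp5, or 41.0 to 48.8% of the astroglial level.

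Oligodendrocyte precursors differed the other way. In OPC_18 at P3, Fabp7 was 6247, 7014 and 7183 CPM and its relative ratio 3.34, 2.96 and 2.29, whereas Fabp5 was 430, 487 and 480 CPM with a relative ratio of 1.16, 1.34 and 1.10. There were 0.0688, 0.0695 and 0.0668 UMIs of Fabp5 for each of Fabp7, below the 0.140 to 0.197 of astroglia. Only 13 such cells came from 3m libraries. All 13 had a UMI of Fabp7, and 83.3% of the 12 that could be thinned kept one (Wilson 95% interval 55.2 to 95.3%). Their pooled level was 1221 CPM of Fabp7 (86 UMIs, exact Poisson 95% interval 977 to 1508) and 142 CPM of Fabp5 (10 UMIs).

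Adult oligodendrocytes held nearly as much Fabp5 as the astroglial sums, which mix both regional classes. The summed cells of ODC_2 and ODC_10 had 1240.3, 1008 and 1175 CPM in 3m replicates 1, 2 and 3, so astroglial cells of the same libraries had only 1.17, 1.09 and 1.08 times as much. Telencephalic astrocytes alone were higher, at 1503, 1415 and 1346 CPM, and non-telencephalic ones lower, at 440, 751 and 886 CPM. The relative ratio of Fabp5 to Slc1a3 was 26.1, 33.2 and 51.6 in ODC_10 (the last on 4 Slc1a3 UMIs) and 2.48, 16.2 and 19.1 in ODC_2. After thinning, 81.2% of ODC_2 and 79.3% of ODC_10 cells held a UMI of Fabp5. Fabp7 was 4.93, 18.1 and 7.38 CPM in the same cells, and the astroglial level was 47.3, 18.7 and 23.4 times as high. Neurons (NEU_22, 53 cells at P3) also had a raised relative ratio for Fabp5, at 1.67, 5.10 and 9.37 (the last on 4 Slc1a3 UMIs), with Fabp7 at 0.864, 1.11 and 1.01.

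**Figure D4:**
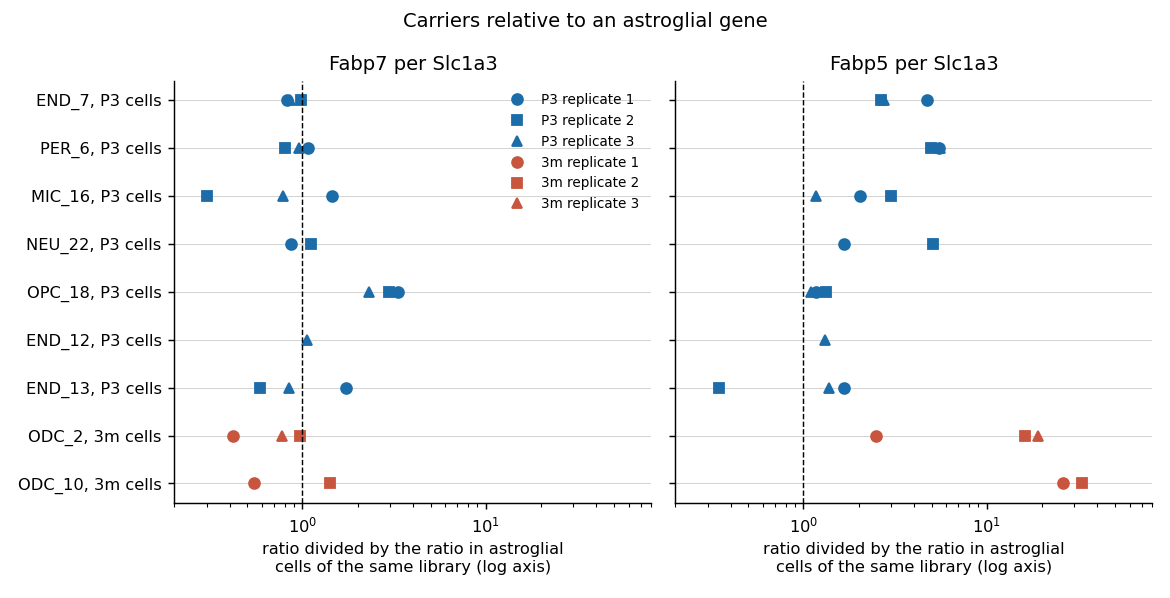
Ratio of Fabp7 (left) and Fabp5 (right) to Slc1a3 in clusters outside the astroglia, divided by the ratio in astroglial cells of the same library, on logarithmic axes. Each symbol is a library with at least 10 Slc1a3 UMIs in the cluster, and the dashed line marks the astroglial ratio. END_7 and PER_6 sit near the line for Fabp7 and at 2.66 to 5.55 for Fabp5, and OPC_18 does the opposite.

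The age change was next compared in endothelial cells and microglia. In endothelial cells (END_7 and END_17, with 605 of the 606 P3 cells in END_7 and all 163 of the 3m cells in END_17), Fabp5 was 199, 156 and 93.0 CPM at P3 and 1.78, 46.7 and 14.6 CPM at 3m, from 1, 12 and 6 adult UMIs. Every adult library was below every P3 library, but the share of all genes that separate like this was not counted. Both tested members were called lower, among 22.3% of genes called (10.7% lower and 11.6% higher): Fabp5 by -3.30 (SE 0.47, adjusted p = 1.89e-05) and Fabp7 by -6.03 (SE 0.53, adjusted p = 5.33e-08, edgeR). Adult Fabp7 rested on 0, 3 and 2 UMIs in 3m replicates 1, 2 and 3. Both genes passed the count filter through their P3 counts, which left little room for any call but a lower level at 3m. The Fabp7 values are those that stood to Slc1a3 as in astroglia, and P3 endothelial cells were deeper than adult ones, with library medians of 22396 to 32502 against 4258 to 8307 UMIs. In adult END_17 the relative ratio of Fabp5 to Slc1a3 was 0.0756, 0.978 and 0.516, on 23, 31 and 24 Slc1a3 UMIs. In END_7 it was 4.74, 2.66 and 2.73. Where the Fabp5 RNA of either cluster came from was not tested. Adult endothelial sums held 119 to 650 CPM of the 6 oligodendrocyte markers, against 1.28 to 3.33 CPM at P3. Pericyte markers were at 6296 to 6665 against 1972 to 3489 CPM, neuronal markers at 124 to 280 against 7.72 to 20.2 CPM, and cycling markers at 0 to 1.78 against 222 to 372 CPM. The 4 haemoglobin genes took 19162 to 42600 CPM at 3m and 9578 to 26843 CPM at P3. The part of these in the result was not tested. The age change of Fabp5 was larger in endothelial than in astroglial cells by -2.11 (SE 0.48, adjusted p = 0.00258, edgeR's interaction test, which called 16% of genes, 7.7% with a negative and 8.33% with a positive difference, or 4.8 and 15.1% without scaling). Without 3m replicate 1 this difference was -1.24 with an adjusted p of 0.0504.

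Microglia showed the same for Fabp5. Its level was 954, 398 and 449 CPM at P3 and 98.8, 39.7 and 18.7 CPM at 3m, from 10, 4 and 1 adult UMIs. The ages did not overlap, which again was not counted over all genes. The relative ratio to Slc1a3 was 2.03, 2.99 and 1.17 at P3 and 1.45, 1.01 and 0.688 at 3m, where it rests on 3 to 12 Slc1a3 UMIs. Fabp5 changed by -3.24 (SE 0.48, adjusted p = 0.000463) and Fabp7 by -6.47 (SE 1.003, adjusted p = 0.000683, edgeR), where 10.1% of genes were called, 3.43% lower and 6.68% higher (4.96 and 5.52% without scaling). Adult Fabp7 rested on 0, 5 and 0 UMIs in 3m replicates 1, 2 and 3. Both genes passed the count filter through their P3 counts, so a lower level at 3m was nearly the only call open to them. The change of Fabp5 exceeded that of astroglia by -2.33 (SE 0.44, adjusted p = 8.59e-05), in an interaction test that called 7.01% of genes (5.15% negative and 1.86% positive) and in which the median gene differed by -0.36. Without scaling 2.86% were negative and 3.93% positive, the median gene differed by 0.095 and Fabp5 by -1.89 (adjusted p = 0.00143), and the endothelial difference of Fabp5 was -1.76 (adjusted p = 0.0102, edgeR). The Fabp7 difference was -0.36 (SE 1.02, adjusted p = 0.908) in microglia and 0.26 (SE 0.89, adjusted p = 0.89) in endothelial cells, with errors too wide to show either likeness or difference. For Fabp3 the difference in endothelial cells was -0.16 (SE 1.61, adjusted p = 0.972, edgeR), on 2 adult UMIs. Oligodendrocyte markers made up 150 to 2360 CPM of adult microglia and 0 to 34.5 CPM of P3 microglia, and cycling markers 0 and 228 to 406 CPM. Their part was not tested.

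Fabp7 in microglia stood beside astroglial markers. P3 microglia had 3443, 261 and 2147 CPM of Fabp7 and 680, 140 and 994 CPM of the 6 astroglial markers, so replicate 2 was lowest in both. Among the 28, 37 and 35 P3 microglia without a UMI of Slc1a3, out of 34, 44 and 46, it was 45.7, 77.1 and 74.0 CPM. Fabp5 was 579, 150 and 109 CPM in those cells, against 16.4, 39.5 and 22.8 CPM in the adult microglia chosen the same way. With this choice, made after the values were seen, the Fabp5 change was -3.17 (SE 0.86, adjusted p = 0.0239) and its difference from astroglia -2.21 (SE 0.66, adjusted p = 0.0193, edgeR).

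Over all barcodes, annotated or not, Fabp7 changed by -7.22 (SE 0.38, adjusted p = 1.09e-06) and Fabp5 by -1.22 (SE 0.24, adjusted p = 0.00261, edgeR), where 34.5% of genes were called (16.1% lower and 18.4% higher). In such sums, fewer cells of a type and less RNA per cell cannot be told apart. Fabp3 was not called (log2 -0.29, SE 0.53, adjusted p = 0.658), and its P3 levels of 3.76, 8.81 and 2.25 CPM bracketed the adult ones of 2.57, 4.76 and 3.66 CPM. P3 replicate 2 was the high library, and without it the change was 0.51.

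That library owed its Fabp3 largely to a few neurons. NEU_22 had 738 CPM of Fabp3 in P3 replicate 2, against 17.4 and 38.4 CPM in replicates 1 and 3. Of 181 UMIs in the cluster, 176 lay in 6 cells with 14 to 53 UMIs each, all of them from P3 replicate 2. The other cluster with Fabp3 was LOW_20, which the study left unidentified, at 151, 191 and 98.7 CPM. It held 869 CPM of 5 neuronal markers (4737 in NEU_22) and 3377 CPM of 4 haemoglobin genes. There it was spread over the cells, with a UMI in 65.6% of 90 cells and in 27.8% after thinning (Wilson 95% interval 19.6 to 37.8%). Fabp3 was also counted in P3 precursors of oligodendrocytes (0, 38.0 and 37.3 CPM) and in P3 microglia (35.6, 15.2 and 6.90 CPM), on 0 to 11 UMIs per library.

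The genes with the most similar pattern over the 23 clusters of at least 50 cells were found by Pearson correlation of log2(CPM + 1), as a description of clusters that share libraries and depth. For Fabp5 they were Hmgcs1 (r = 0.887) and Fdft1 (0.873), enzymes of sterol synthesis, Bckdhb (0.878), of branched-chain amino acid breakdown, Phgdh (0.868), of serine synthesis, and Acot1 (0.858), an acyl-CoA thioesterase. For Fabp7 they were Sall3 (0.925), a zinc finger factor, Unc119 (0.925), a lipid-binding chaperone, Ptprz1 (0.923), a receptor phosphatase of glia, Rtn1 (0.919) and Mex3a (0.913). Rtn1 and Mex3a were highest in the neurons of NEU_22. For Fabp3 they were Myt1l (0.90), Bcl11b (0.899), Syt1 (0.881), Cdk5r2 (0.88) and Nefl (0.869), each highest in NEU_22.

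The rest of the family was almost silent. Over all barcodes Fabp4, the adipocyte carrier, had 83 UMIs, Pmp2, the carrier of peripheral myelin, 22, Fabp12 12, Fabp6 1 and Fabp9 1, and no UMI was counted for Fabp1 or Fabp2. None of these could be tested. Among retinoid carriers, which belong to the same structural family, Crabp1 had 120 UMIs over all barcodes, Crabp2 61, Rbp2 67 and Rbp7 17.

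Genes that handle fatty acids before and after the carriers were listed to place the members among them. Of 6 uptake genes tested in astroglia, 2 rose, 2 fell and 2 were not called, with a median log2 change of -0.19. The fatty acid transporter Slc27a1 rose by 1.14 (SE 0.16, adjusted p = 6.50e-05) and Mfsd2a, a carrier of lysophosphatidylcholine with docosahexaenoic acid, by 2.70 (SE 0.32, adjusted p = 1.55e-05, edgeR). Among 19 genes of activation and acyl-CoA handling, 7 rose, 2 fell and 10 were not called (median 0.71).

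Within that group the acyl-CoA synthetases named by size rose, while the binding protein Dbi and the thioesterase Acot1 fell. Acsl3 rose from 177 ± 40.1 to 1539 ± 219 CPM (log2 3.32, SE 0.23), Acsl6 from 92.7 ± 14.2 to 661 ± 27.6 CPM (3.03, SE 0.19) and Acsbg1 from 285 ± 7.08 to 645 ± 48.6 CPM (1.36, SE 0.18). Dbi, which carries acyl-CoA in the cytosol, fell from 13402 ± 3086 to 2774 ± 667 CPM (log2 -2.09, SE 0.32, adjusted p = 0.00014, edgeR). Acot1 fell from 1217 ± 256 to 122.7 ± 25.7 CPM (log2 -3.11, SE 0.26). SDs are over 3 libraries at each age.

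Of 20 genes of synthesis and elongation, 6 rose, 2 fell and 12 were not called (median 0.68). The elongase Elovl5 (log2 1.51) and the dehydratase Hacd2 (1.53) rose and Hacd1 (-1.36) fell. Of 27 oxidation genes 4 rose, none fell and 23 were not called (median 0.03), with Hadhb of the trifunctional protein at 1.39 and the isomerase Eci1 at 1.06. Eci1 missed the size needed for a call in 7 of 17 alternatives, and Slc27a1 (0.95 without scaling) and Hadhb (0.95 with a stricter cell filter) in 1 each. Of 12 lipid droplet genes 3 rose, none fell and 9 were not called (median 0.70), among them the lipase Mgll (1.80) and G0s2 (2.43), an inhibitor of triglyceride lipase. Of 11 nuclear receptors for lipids 3 rose, 1 fell and 7 were not called (median 0.65). None of 7 factors known from work on the Fabp7 promoter (Pax6, Notch1, Rbpj, Nfia, Nfib, Nfix and Pou3f2) was called (median -0.03), but not all were level. Nfia (log2 -0.82, adjusted p = 0.0197), Nfib (-0.60, adjusted p = 0.0113) and Nfix (-0.93, adjusted p = 0.00251, edgeR) were lower and Pax6 higher (0.70, adjusted p = 0.0162), each short of the size needed for a call. All these counts are read beside the 32.1% of genes called in the same comparison and the median of -0.04 over all genes.

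**Figure D5:**
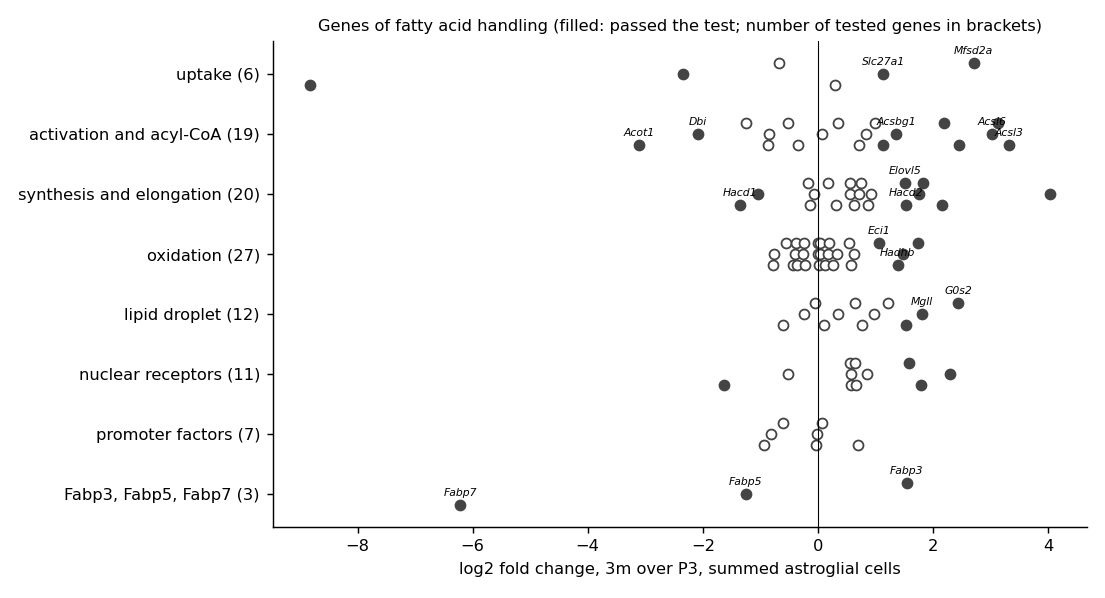
Log2(fold change), 3m over P3, of tested genes of fatty acid handling in summed astroglial cells, by group, with 1 point per gene, filled where it was called and with the number of tested genes in brackets. Fabp7 (-6.22) lies far to the left, passed by 1 uptake gene, the lipase Lpl, which had 0 UMIs in adult astroglia, and the synthetases Acsl3 and Acsl6 lie to the right.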

How the data were processed

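The deposited table held UMI counts, not normalized, of all 6 libraries. Per the labels and the methods, the authors mapped reads to mm10 and counted them with Cell Ranger, merged the filtered matrices and, for the named cells, kept those with over 500 genes and under 10% mitochondrial UMIs. Clusters, sub-clusters and pseudotime bins are theirs (Seurat 3.1.1 per the submitters' processing notes). Doublets were not removed here.

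Counts were summed per library and cell set and tested with edgeR 4.0.16 in R 4.3.3 (quasi-likelihood, TMM, filterByExpr, Benjamini-Hochberg over all genes tested). Fold changes are 3m over P3. Interaction fits had the library as a block. Alternatives were RLE scaling, no scaling, no filter, DESeq2 1.42.0, thinning, other cell filters and leaving out each library. A level was given for a library with at least 10 cells in the group. Ratios used a pseudocount of 0.5. Intervals cover counting error only. The fit and the search for similar genes were tested on simulated counts. The libraries of an age were separate preparations, and p-values measure the spread between them.

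Members, gene lists and markers were chosen with earlier results of these data known. Beside the members, the text names every other gene of the family with a UMI, the 3 largest called changes each way per list that reach 50 CPM on average at either age, and the 5 genes most similar to each member. Lpl was named after its value was seen. Fabp1, Fabp2 and the 7 promoter factors are named as lists, with values for those past the adjusted p. Some genes are not reported here. The same replicate number in both ages marked no shared origin in the labels.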

Additional observations from a re-analysis of the deposited data

Results flagged for a closer look

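In the main fits the age change of Fabp5 differed between cell types. In microglia it exceeded the change of astroglial cells by -2.33 on the log2 scale and in endothelial cells by -2.11, each by a test of the interaction of age and cell type (edgeR). Adult microglia held 15 UMIs of Fabp5 in all and adult endothelial cells 19. The endothelial difference lost its call in 1 of 9 alternatives and ran from -3.30 to -1.24 when 1 library was left out. The microglial difference kept its call in all 10 alternatives. The groups of 3 libraries were too small to be searched for single outlying samples.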

How the results depend on the processing

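Fabp7 kept its direction and its call in all 17 alternatives of the astroglial comparison (log2 -6.58 to -5.98), as did Fabp5 (-1.44 to -1.10). Of the 14 other called genes named by the size of their change, 11 did so. Fabp3 in astroglia had a result in 13 of these alternatives. It was 0.66 with the stricter cell filter (over 1000 genes, under 5% mitochondrial UMIs), on 2 adult UMIs. It was -0.14 without sub-cluster 16, an alternative chosen after seeing the data. Over all barcodes, leaving out 1 library at a time moved it from -0.65 to 0.51. Leaving out 1 library at a time gave -1.33 to -0.79 for Fabp5 in non-telencephalic astrocytes. For the differences from astroglia, the same step gave -10.48 to 0.46 (microglia, Fabp7), -7.14 to 0.48 (endothelial cells, Fabp3), -0.49 to 1.09 (endothelial cells, Fabp7) and -3.30 to -1.24 (endothelial cells, Fabp5). Without scaling beyond library totals the Fabp7 difference in microglia was 0.071 and the Fabp3 difference in endothelial cells 0.18, and the Fabp7 difference was 3.24 without microglia holding a UMI of Slc1a3, also chosen after seeing the data. The causes were not tested.

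Thinning to the smallest library lowered the genes called to 2674 (astroglia, 4344 before), 2241 (telencephalic, 3657), 380 (non-telencephalic, 2603), 957 (endothelial, 2286) and 109 (microglia, 271), and no filter raised microglia to 513. Leaving out 1 library gave 1664 to 2961 calls (non-telencephalic, lowest without 3m replicate 2), 125 to 255 (microglia, lowest without 3m replicate 1, and 159 without 3m replicate 2) and 430 to 651 (microglia against astroglia, lowest without 3m replicate 2). With a replicate block, Fabp7 changed by -6.25, Fabp5 by -1.23 and Fabp3 by 1.53 in astroglia, with 4420 genes called. No call of a member changed with the block in any comparison. Deviations of same-numbered libraries correlated at 0.206, 0.0993 and 0.039, and those of differently numbered libraries at -0.173 to 0.142. The value of replicate 1 was the highest of all. The numbers were not taken to pair the libraries, since the labels gave them no shared origin. Adult endothelial and microglial values of 0 to 12 UMIs per library limit their fold changes.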
